A study of Mus musculus with 2 samples.

Results

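The microRNA stem-loop probe sets of the Affymetrix Mouse Gene 1.0 ST array were compared between bone marrow-derived dendritic cells of the inbred mouse strains CBA/J and C57BL/6. A stem-loop is the hairpin stretch of a microRNA transcript. Members were the rows of the processed table whose description holds the word stem-loop, which took in 346 of 35557 rows. Of these, 2 rows belong to Slbp, which encodes the stem-loop binding protein of histone mRNAs and is no microRNA, and they were set aside. The other 344 rows held 321 distinct pairs of values, since repeated hairpins share them: 13 rows of mir-669a, for example, hold 1 pair. Each distinct pair was counted once, so that 321 stem-loops were compared.

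The CBA/J cells and the C57BL/6 cells were both grown from femur and tibia marrow of normal mice, with a supernatant that contains GM-CSF, and were harvested on day 7. They received no treatment, and were plated for 4 h before the wells of a strain were pooled for RNA. GM-CSF cultures of marrow are known to hold macrophages and granulocytes beside dendritic cells, and age and sex of the mice are not given in the sources used here. Each strain has 1 array: values carry no replicate error, none was tested, and strain cannot be told apart from animal, culture or array. Every difference is CBA/J minus C57BL/6 on the log2 scale.

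MicroRNAs are cut from hairpins within longer primary transcripts, first by Drosha and Dgcr8 in the nucleus and then by Dicer1 in the cytoplasm. The mature strand is loaded into an Argonaute protein and pairs with messenger RNAs mainly through its seed, the bases near its 5′ end, which lowers their stability and translation. In myeloid cells mir-155 is known as a microRNA induced by inflammatory signals, mir-223 as one abundant in granulocytes and their precursors, and mir-146a as a brake on Toll-like receptor signalling. The probe sets are described by the hairpin, so a signal here does not separate primary transcript, hairpin and mature strand.

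The mature strands of the stem-loops that differed most, with their closest relatives, are shown 5′ to 3′ from RefSeq (GRCm38.p6), to let members with the same seed be told apart. Capitals mark the seed, bases 2 to 8.
miR-155-5p: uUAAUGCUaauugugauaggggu
miR-223-3p: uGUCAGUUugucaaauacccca
miR-15a-5p: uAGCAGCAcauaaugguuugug
miR-16-5p: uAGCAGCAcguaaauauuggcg
miR-15b-5p: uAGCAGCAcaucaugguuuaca
miR-29a-3p: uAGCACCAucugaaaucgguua
miR-29b-3p: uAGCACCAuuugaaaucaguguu
miR-29c-3p: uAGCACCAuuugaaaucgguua
miR-132-3p: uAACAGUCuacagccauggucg
miR-212-3p: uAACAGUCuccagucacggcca
miR-181a-5p: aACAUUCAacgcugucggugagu
miR-181b-5p: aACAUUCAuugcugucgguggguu
miR-181d-5p: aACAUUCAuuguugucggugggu

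The seed AGCAGCA is shared by miR-15a-5p, miR-15b-5p and miR-16-5p, AGCACCA by the miR-29 strands, AACAGUC by miR-132-3p and miR-212-3p and ACAUUCA by the miR-181 strands. Counted from the 5′ end, miR-29a-3p and miR-29c-3p differ by C10U alone, and miR-181b-5p and miR-181d-5p by C12U over their shared length. The hairpins of mir-155, which had the largest difference, and of mir-223, the brightest of the stem-loops known from immune cells, are shown with the mature strand in capitals. They lie at chr16:84714140-84714204 and chrX:96242817-96242926, both on the plus strand.
mir-155: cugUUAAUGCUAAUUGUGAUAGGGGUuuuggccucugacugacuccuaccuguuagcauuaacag
mir-223: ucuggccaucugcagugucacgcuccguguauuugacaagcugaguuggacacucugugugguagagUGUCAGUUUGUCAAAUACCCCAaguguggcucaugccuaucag

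Most stem-loops gave a signal within the range of the array's own negative controls, which on this array type lie in introns of widely expressed genes and so can also take up unspliced RNA. The 321 stem-loops had a median of 4.93 in CBA/J and 4.83 in C57BL/6 (log2), below the medians of the 5222 negative controls, 5.49 in CBA/J and 5.27 in C57BL/6. Above the negative control median stood 118 stem-loops (36.8%) in CBA/J and 131 (40.8%) in C57BL/6. Above the 95th percentile of the negative controls, at 8.28 on the CBA/J array and 8.17 on the C57BL/6 array, stood 10 stem-loops (3.12%) in CBA/J and 14 (4.36%) in C57BL/6, and 10 did so on both arrays. Among the 28665 other probe sets that are not controls, these shares were 17.2% in CBA/J and 17.3% in C57BL/6. A level rule was set for counting differences: the higher array had to reach its own median over all probe sets that are not controls, 6.03 in CBA/J or 6.08 in C57BL/6. It was met by 91 stem-loops (28.3%), by 52.7% of the other probe sets and by 38.5% of the negative controls.

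**Figure D1:**
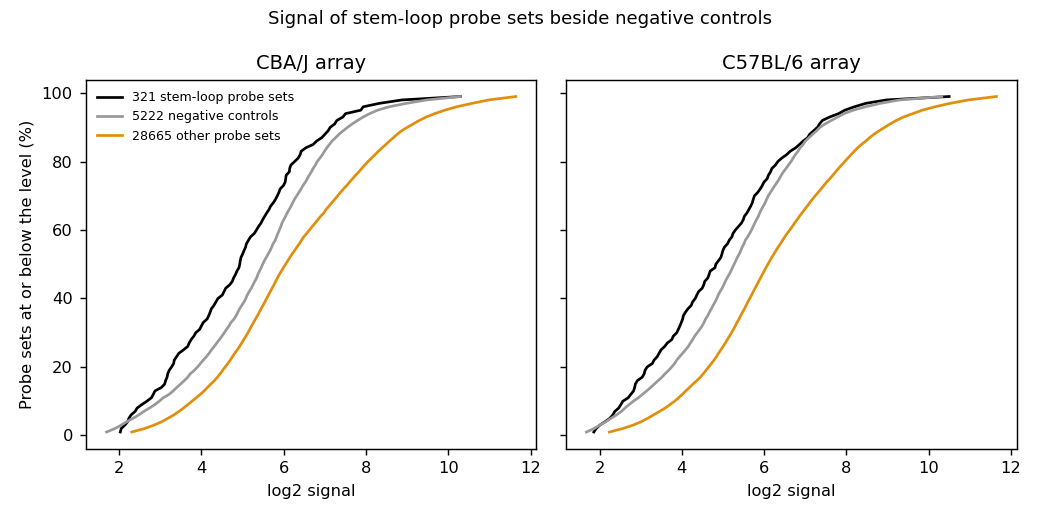
Share of probe sets (vertical axis, %) at or below each log2 signal (horizontal axis) on the CBA/J array, left, and the C57BL/6 array, right, drawn at each percentile for stem-loops, negative controls and other probe sets. The median of the stem-loops lies left of that of the negative controls on both arrays, 4.93 against 5.49 in CBA/J and 4.83 against 5.27 in C57BL/6.

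The 10 stem-loops with the highest mean signal were mir-692-2, mir-685, mir-703, mir-692-1, mir-223, mir-689-1, mir-207, mir-598, mir-27a and mir-346, and each was above the 95th percentile of the negative controls on both arrays. Signals of different probe sets depend on their probes, so this is an order of signal and not of transcript abundance. The brightest, mir-692-2, had 11.60 in CBA/J and 11.72 in C57BL/6. The next, mir-685, had 11.27 in CBA/J and 11.77 in C57BL/6. Among the others, mir-703 had 11.29 in CBA/J and 11.49 in C57BL/6, and mir-689-1 had 9.28 in CBA/J and 9.64 in C57BL/6. Of the 10, mir-223 alone was higher in CBA/J; the other differences ran between -0.50 for mir-685 and -0.01 for mir-27a. The RefSeq table gave no position for mir-685 and mir-689-1, and put mir-692-2 and mir-703 on another chromosome than the deposited annotation does. Of stem-loops known from immune cells, mir-223 had the highest signal. The mir-23a cluster on chromosome 8, which is known to be active in myeloid cells, followed: mir-27a had 8.54 in CBA/J and 8.55 in C57BL/6, and mir-23a had 8.21 in CBA/J and 8.32 in C57BL/6. The blood cell microRNA mir-142 had 7.88 in CBA/J and 8.02 in C57BL/6, at the 92.6th and the 94.3rd percentile of the negative controls of the array. By contrast, mir-146a had 3.56 in CBA/J and 2.85 in C57BL/6, both below the negative control median, so its log2 difference of 0.71 compares background-level signals. The stem-loop of mir-21 was not analysed here.

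Over all stem-loops the differences were centred on 0, those at the level rule leaned toward C57BL/6, and the number past 2-fold was near the background. Over the 321, the median difference was 0, with quartiles of -0.17 and 0.20. Of them 146 were higher in CBA/J and 155 in C57BL/6, beside 47.6% and 49.6% of all 29011 probe sets that are not controls and 62.8% and 37% of the negative controls. The remaining 20 stem-loops had identical values on both arrays (6.23%, against 2.80% of probe sets that are not controls), and the brightest of them, mir-30d, had 6.13. Of the 91 stem-loops that met the level rule, 25 were higher in CBA/J and 65 in C57BL/6, with a median difference of -0.12 against 0.05 for the other probe sets at that level. Of these 91, 2 differed at least 2-fold (2.20%, exact Clopper-Pearson 95% interval 0.267% to 7.71%, which covers counting only). The background was 2.38% of 15189 probe sets that are not controls and 5.77% of 2012 negative controls. With 1.5-fold as the limit there were 7 (7.69%), against 7.38% of probe sets that are not controls and 26.2% of negative controls. The interval of the 2-fold share holds the background of both kinds of probe set, so no difference from either is shown.

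**Figure D2:**
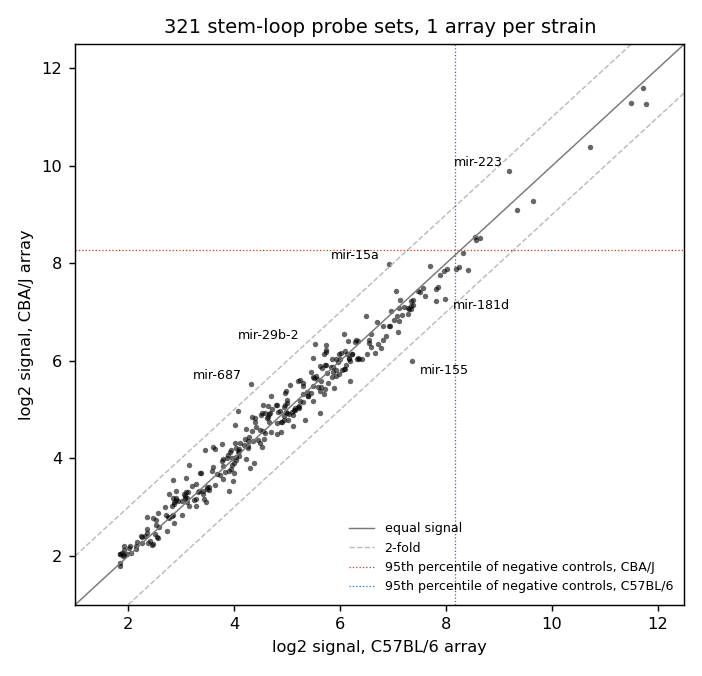
Log2 signal of each of the 321 stem-loops on the CBA/J array (vertical axis) and the C57BL/6 array (horizontal axis), with lines for equal signal, for a 2-fold difference and for the 95th percentile of the negative controls. The farthest point from equal signal is mir-155, with 5.99 in CBA/J and 7.36 in C57BL/6; mir-687 lies past the 2-fold line only at low signal.

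The 2 stem-loops past 2-fold under the level rule were mir-155, lower in CBA/J, and mir-15a, higher in CBA/J. The log2 signal of mir-155, whose seed UAAUGCU is shown above, read 5.99 in CBA/J and 7.36 in C57BL/6. That is a difference of -1.37, 2.58-fold higher in C57BL/6, where 0.994% of probe sets that are not controls and 1.19% of negative controls passed in this direction. Its signal stood at the 62.9th percentile of the negative controls in CBA/J and the 90.0th in C57BL/6, and it met the level rule through C57BL/6 alone. It therefore entered the count by the array on which it was high, and with both arrays required to reach their medians, mir-15a was the 1 of 75 stem-loops past 2-fold (1.33%, against 1.35% of negative controls). The signal of mir-15a, known for repressing cell cycle and survival genes, read 7.98 in CBA/J and 6.92 in C57BL/6. Its difference of 1.06 was 2.08-fold higher in CBA/J, where 1.38% of probe sets that are not controls and 4.57% of negative controls passed, and it stood just past the limit: after quantile normalization it was 0.98. Just inside and just outside the limit stood mir-15a and mir-29b-2, which had 6.35 in CBA/J and 5.52 in C57BL/6, a difference of 0.83. Below the level rule, mir-687 had 5.52 in CBA/J and 4.33 in C57BL/6. These signals stood at the 50.8th percentile of the negative controls in CBA/J and the 29.2nd in C57BL/6. The difference of mir-687 therefore compares background-level signals, and no ratio is given for it.

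Between 1.5-fold and 2-fold lay mir-29b-2, mir-223 and mir-16-1, higher in CBA/J, and mir-181d and mir-132, lower in CBA/J. Like mir-155, the stem-loops mir-29b-2, mir-16-1 and mir-132 met the level rule through their higher array alone. They thus entered the count by the array on which they were high. The background in these directions, 2-fold included, was 4.53% of probe sets that are not controls and 20.8% of negative controls higher in CBA/J, and 2.85% and 5.37% higher in C57BL/6. The signal of mir-223 read 9.90 in CBA/J and 9.20 in C57BL/6, a difference of 0.70, and it was the only one of the 7 stem-loops past 1.5-fold above the 95th percentile of the negative controls on either array. The neutrophil marker list moved the same way: 6 of 7 markers were higher in CBA/J, the median was 7.53 in CBA/J and 5.92 in C57BL/6, and the sum of linear signals was 1465 in CBA/J and 499.5 in C57BL/6. Its member Ly6g had 7.53 in CBA/J and 4.96 in C57BL/6, and Mpo was at the background with 5.73 in CBA/J and 5.74 in C57BL/6. Of the 7 neutrophil markers 4 met the level rule. Below it, beside Mpo, were Camp, with 6.01 in CBA/J and 5.92 in C57BL/6, and Ltf, with 5.79 in CBA/J and 5.05 in C57BL/6. The part of these cells in the mir-223 difference was not tested, and in a bulk culture fewer cells of a type and less RNA per cell cannot be told apart.

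The other cell marker lists were read on the same arrays. Of 8 dendritic cell markers 7 met the level rule and 3 were higher in CBA/J, with linear signals that summed to 11217 in CBA/J and 14592 in C57BL/6. The integrin gene Itgax had 10.50 in CBA/J and 10.63 in C57BL/6, while Flt3 was below the rule in both. The class II gene H2-Ab1, with 10.36 in CBA/J and 11.65 in C57BL/6, made up much of the gap in the sum, and Ciita, its transactivator, ran the other way with 7.93 in CBA/J and 7.01 in C57BL/6. All 7 macrophage and monocyte markers met the rule and 6 were higher in CBA/J, with a sum of 10628 in CBA/J and 7449 in C57BL/6. Of 7 mast cell and basophil markers 2 met it, with a sum of 230.1 in CBA/J and 423.6 in C57BL/6, and none of 5 T and B cell markers did. Most of that gap was in the protease gene Cpa3, with 5.04 in CBA/J and 7.61 in C57BL/6. Of 4 erythroid markers 2 met the rule and none was higher in CBA/J, with a sum of 206.0 in CBA/J and 253.1 in C57BL/6, and the globin gene Hbb-b1 had 5.73 in CBA/J and 6.64 in C57BL/6. The part of any of these cells in the stem-loop values was not tested.

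The stem-loops with the seed of mir-29 were higher in CBA/J at both of their loci. Beside mir-29b-2, its chromosome 1 neighbour mir-29c had 6.55 in CBA/J and 6.08 in C57BL/6, a difference of 0.47. On chromosome 6, mir-29a had 5.28 in CBA/J and 4.69 in C57BL/6, and mir-29b-1 had 3.27 in CBA/J and 2.78 in C57BL/6. All 4 differences thus had the same sign, 0.47 to 0.83, but the pair on chromosome 6 lay below the negative control median on both arrays. This family is known for repressing collagen and other matrix genes and, in mouse lymphocytes, interferon-gamma.

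The seed AGCAGCA has 7 measured stem-loops, which divided by locus. On chromosome 14, mir-15a was accompanied by mir-16-1, with 6.33 in CBA/J and 5.74 in C57BL/6, a difference of 0.59. On chromosome 3, mir-15b and mir-16-2 differed by 0.68 and 0.39, with all signals below the negative control median. The others did not follow: mir-497 had 5.87 on both arrays, mir-195 differed by -0.12 and mir-322 by -0.26. The host transcript of the chromosome 14 pair, Dleu2, had 2.05 in CBA/J and 2.11 in C57BL/6, far below the negative control median, so it gave no reading of that transcript. Smc4, the host of the chromosome 3 pair and a condensin subunit gene, had 8.52 in CBA/J and 8.17 in C57BL/6.

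The 6 stem-loops with the seed of mir-181, known for tuning lymphocyte receptor signalling, differed in opposite directions at separate loci. On chromosome 8, mir-181d had 7.26 in CBA/J and 7.97 in C57BL/6, a difference of -0.71, and mir-181c had 6.50 in CBA/J and 6.86 in C57BL/6. On chromosome 1, mir-181b-1 had 6.06 in CBA/J and 5.48 in C57BL/6, a difference of 0.58, and mir-181a-1 had 4.23 in CBA/J and 3.60 in C57BL/6. On chromosome 2, mir-181a-2 and mir-181b-2 differed by -0.08 and 0.13. The mature strands of these loci are nearly alike, as the sequences above show, so these hairpin values give no level for the mature family.

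The pair mir-132 and mir-212, which share a seed and a locus on chromosome 11 and are known, in neurons, as targets of the transcription factor CREB, were both lower in CBA/J. The signal of mir-212 read 7.23 in CBA/J and 7.81 in C57BL/6, and that of mir-132 read 5.59 in CBA/J and 6.19 in C57BL/6. The differences of -0.58 and -0.61 are close to 1.5-fold. Further differences among the largest toward C57BL/6 were those of mir-341, with 7.87 in CBA/J and 8.42 in C57BL/6, and of mir-375, mir-540 and mir-685, between -0.52 and -0.50.

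**Figure D3:**
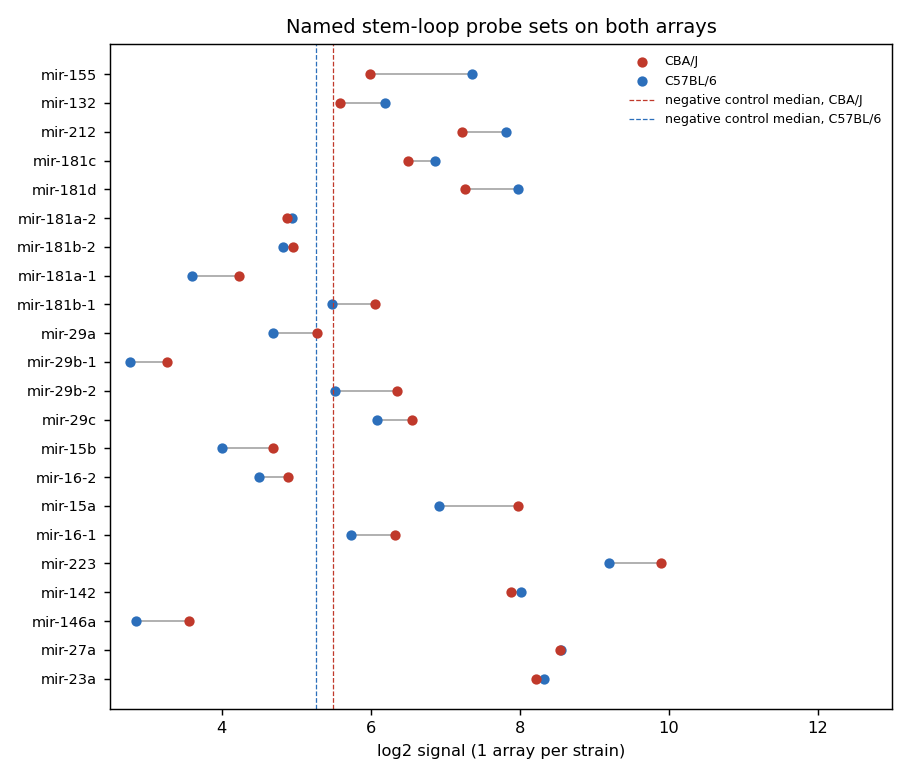
Log2 signal (horizontal axis) of named stem-loops and their seed relatives on the CBA/J array (red) and the C57BL/6 array (blue), with the negative control median of each array as a dashed line. The red points lie right of the blue ones for all 4 mir-29 stem-loops and left of them for mir-155, mir-132 and mir-212, and several pairs lie left of both dashed lines.

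Among 24 seeds carried by at least 3 measured stem-loops, 4 had every member higher in CBA/J and 1, the mir-125 seed CCCUGAG, had every member higher in C57BL/6. Some stem-loops carry a seed on each arm and so count under both. The seeds GCAGCAU and GCUUCUU, both among the 4, are carried by the same stem-loops, mir-103-1, mir-103-2 and mir-107. No share for unrelated sets of this size was computed, so the counts show no tie between seed and direction. The seed GUGCAAA of mir-19a, mir-19b-1 and mir-19b-2 was among those higher in CBA/J, with differences of 0.19 to 0.73 and no member at the level rule. The stem-loops mir-103-1, mir-103-2 and mir-107, encoded within pantothenate kinase genes, differed by 0.35, 0.45 and 0.20. The let-7 list, a family known for holding back growth genes, had 12 members of which 8 were higher in CBA/J and 4 in C57BL/6, with a median difference of 0.07 and none past 1.5-fold. Only 4 of the 12 met the level rule, where 7.38% of probe sets that are not controls passed 1.5-fold. The let-7 member let-7i had 6.14 in CBA/J and 6.51 in C57BL/6.

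Stem-loops within 10 kb of each other, which can share a primary transcript, formed 51 clusters with 161 members. In 20 clusters all members differed the same way, toward CBA/J in 14 of them and toward C57BL/6 in 6. Most clusters are pairs, and some of the 20, such as mir-144 with mir-451, had no member at the level rule. No share for unrelated stem-loops was computed, so the count shows no shared transcript. Where every member met the level rule, this held for 7 of 8 clusters, which have 2 or 3 members each, and the exception was that of mir-25, mir-93 and mir-106b. Over 110 neighbouring pairs the differences had r = 0.298, a description across stem-loops that share both arrays and often base composition, and 50 of the 95 pairs with no zero had the same sign. The growth-promoting cluster of mir-17 to mir-92a-1 on chromosome 14 was higher in CBA/J in 6 of 6 members, by 0.19 to 0.73. Its brightest member, mir-92a-1, had 5.92 in CBA/J and 5.73 in C57BL/6, and no member met the level rule. Of its relatives on chromosome 5, mir-106b had 6.23 in CBA/J and 5.74 in C57BL/6, while mir-25 had 6.73 in CBA/J and 6.95 in C57BL/6, and mir-93 had 5.91 in CBA/J and 6.12 in C57BL/6. Over the list of these related clusters, 9 of 14 measured members were higher in CBA/J, with a median of 0.19. The 3 at the level rule, all on chromosome 5, had a median of -0.21, against -0.12 over all 91 at that rule.

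No other cluster of 4 or more members had all of them on 1 side of 0. The imprinted cluster of mir-379 to mir-410 on chromosome 12, known from placenta and brain, had 31 members with 17 higher in CBA/J and 12 in C57BL/6, between -0.36 and 0.43, and its brightest, mir-667, had 7.89 in CBA/J and 8.18 in C57BL/6. Beside it, the 7 members of mir-337 to mir-136 ranged between -0.50 and 0.70, with mir-540 brightest with 6.58 in CBA/J and 7.09 in C57BL/6. On the X chromosome, 6 of 7 members of mir-450b to mir-322 were lower in CBA/J, with mir-351 brightest with 5.78 in CBA/J and 5.87 in C57BL/6. Also on X, mir-362 led its cluster of 5, which ranged between -0.19 and 0.46, with 6.00 in CBA/J and 6.18 in C57BL/6. Another cluster of 5 on X, between -0.08 and 0.23, was led by mir-106a with 4.18 in CBA/J and 3.95 in C57BL/6. The cluster of mir-302b to mir-367, known from pluripotent cells, ranged between -0.20 and 0.30, with mir-302d brightest with 2.84 in CBA/J and 3.03 in C57BL/6. The related trios mir-23a, mir-27a and mir-24-2 on chromosome 8 and mir-23b, mir-27b and mir-24-1 on chromosome 13 differed by -0.11, -0.01 and -0.23 and by 0.26, 0.10 and 0.37.

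**Figure D4:**
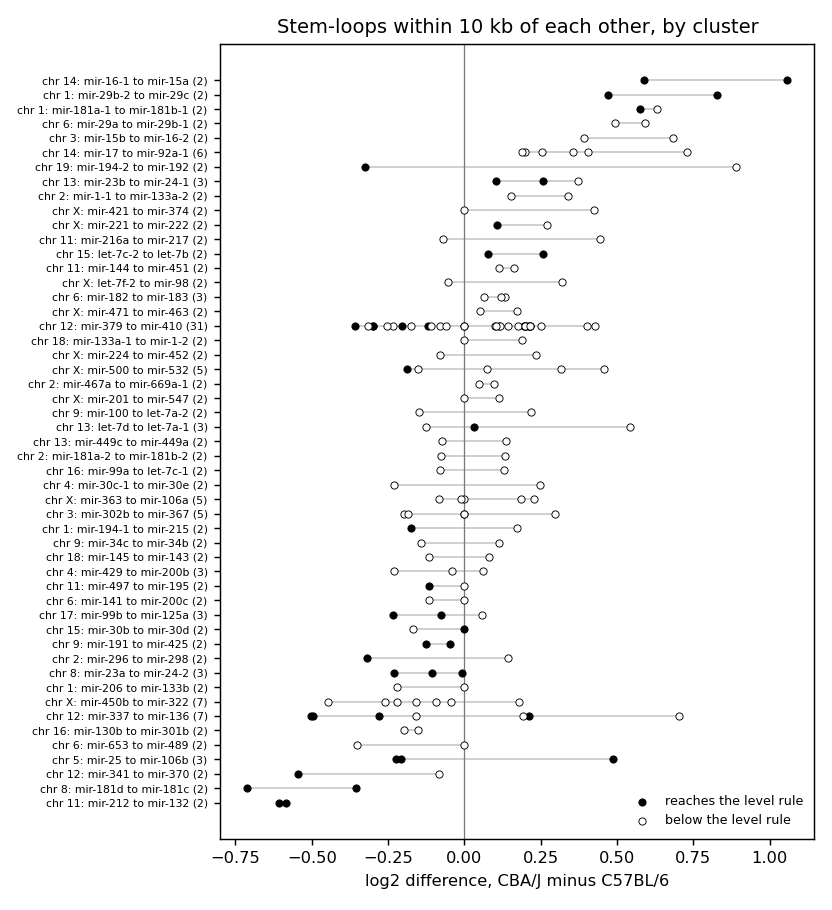
Log2 difference, CBA/J minus C57BL/6 (horizontal axis), of each stem-loop by genomic cluster, ordered by the cluster's median, with the number of members in brackets. Filled points met the level rule and open points did not; the pair mir-212 and mir-132 is at the bottom with 2 filled points, and the 31 members of mir-379 to mir-410 spread on both sides of 0.

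Stem-loops within introns or exons of 43 host genes gave 50 pairs, and 31 of the 46 with no zero had the same sign in stem-loop and host. Across pairs r was 0.239 for the differences and -0.06 for the levels, a description over pairs that share both arrays. With stem-loops at the level rule alone, 8 of 13 had the same sign. The rule was not applied to the hosts. The 13 thus include mir-15a and mir-16-1 with Dleu2, which gave no reading and counted as opposite in sign. No share for unrelated stem-loops and genes was computed, so these counts show no link between stem-loop and host. The largest host difference was in Pde2a, a cyclic nucleotide phosphodiesterase gene, with 6.26 in CBA/J and 7.50 in C57BL/6, where mir-139 had 7.47 in CBA/J and 7.81 in C57BL/6. For Gpc1, a glypican gene, the values were 8.43 in CBA/J and 9.14 in C57BL/6, and mir-149 had 6.14 in CBA/J and 6.23 in C57BL/6.

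Base composition moved with both the signal and the difference of the stem-loops. Over the 276 with a RefSeq hairpin, the G and C share of the hairpin had r = 0.741 with mean signal and r = -0.369 with the difference, a description across stem-loops on 2 shared arrays. In the 69 stem-loops poorest in G and C, the median level came to 3.13 in CBA/J and 3.02 in C57BL/6, and 42 of 69 were higher in CBA/J. In the 69 richest, the median was 6.17 in CBA/J and 6.41 in C57BL/6, and 12 of 69 were higher in CBA/J. The 91 stem-loops at the level rule leaned toward C57BL/6. Of the 71 among them with a hairpin sequence, 23 were higher in CBA/J and 48 in C57BL/6. After a linear trend on G and C share was removed the split was 34 and 37. That line was fitted to the differences of the 276, these 71 included, so a more even split was in part built in. Among these 71, only those richest in G and C leaned toward C57BL/6. Of the 46 among the 69 richest, 6 were higher in CBA/J and 40 in C57BL/6. The 13 with shares of 47.7% to 53.8% split 8 and 5, and the 9 with 42.6% to 47.6% split 7 and 2. The 3 among the 69 poorest split 2 and 1. Over all 91, the split was 26 and 65 after a lowess trend was removed and 25 and 66 after quantile normalization. G and C share also moved with signal, and the parts of composition and level in the lean were not separated. The cause of the lean was not tested. With the trend removed, mir-155 stood at -1.47, mir-223 at 0.69, mir-181d at -0.70 and mir-29b-2 at 0.68, while mir-212 stood at -0.33. The hairpin of mir-15a is not in the table used, so it has no such value.

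**Figure D5:**
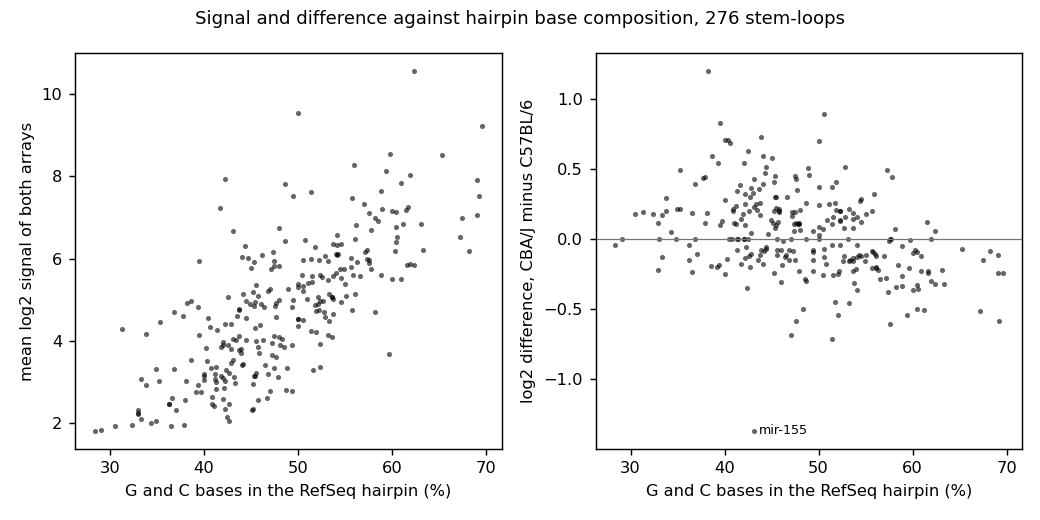
Mean log2 signal of both arrays (left, vertical axis) and log2 difference, CBA/J minus C57BL/6 (right, vertical axis), against the share of G and C bases in the hairpin (horizontal axis, %) for 276 stem-loops. Signal climbs and the difference declines along the axis, with r of 0.741 and -0.369, and mir-155 lies apart at the bottom of the right panel.

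Of 60 listed microRNAs with known roles in immune cells, 53 were measured and 21 met the level rule. Of the 53, 29 were higher in CBA/J and 24 in C57BL/6, with a median difference of 0.07. The 2 past 2-fold among the 21 are those already given, beside 2.38% of probe sets that are not controls. Past 1.5-fold were 4 higher in CBA/J and 2 in C57BL/6, beside 4.53% and 2.85% of those probe sets. The list was chosen with earlier results of these data known, so these counts show nothing about its members. Over the 21 at the level rule the median was -0.10. That is near the -0.12 over all 91 stem-loops at that rule, of which 65 were higher in C57BL/6. A list of 50 microRNAs known from other tissues, such as muscle, liver and brain, had 38 measured and 3 at the level rule. The median difference of the 38 was 0. The lists overlap: the stem-loops of mir-9, mir-124, mir-144 and mir-451 are in both, and none of these met the level rule. All 3 at the level rule were lower in CBA/J, with a median of -0.24, the direction of most stem-loops at that rule. Those 3 were mir-375 of pancreatic islets, mir-219-1 of oligodendrocytes and mir-486 of muscle and red cells, which differed by -0.21. The signal of mir-375 read 6.26 in CBA/J and 6.78 in C57BL/6.

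Genes that make and use microRNAs were measured by their own probe sets and differed little. Of 36 measured, 35 met the level rule, 27 were higher in CBA/J and 9 in C57BL/6. None passed 1.5-fold, beside 7.38% of all probe sets that are not controls at the level rule. Of the 12019 genes at that level, 59.9% were higher in CBA/J. The median difference of the 36 was 0.16, against 0.07 over those genes. After quantile normalization both were smaller, 0.09 for the 36 and 0.00 over those genes. In the nucleus, Drosha, listed as Rnasen, had 7.17 in CBA/J and 7.10 in C57BL/6, and its partner Dgcr8 had 7.97 in CBA/J and 7.72 in C57BL/6. The export gene Xpo5 had 7.87 in CBA/J and 7.62 in C57BL/6. Dicer1 had 8.54 in CBA/J and 8.33 in C57BL/6, a difference of 0.22. Argonaute 2, listed as Eif2c2, went the other way with 9.22 in CBA/J and 9.49 in C57BL/6. The largest difference was 0.53 for Xrn2, a nuclear exonuclease gene, with 9.40 in CBA/J and 8.86 in C57BL/6, followed by 0.41 each for Pnpt1, which encodes a mitochondrial RNase, and Ddx20, which encodes a helicase.

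Known targets of mir-155, from the literature on mouse immune cells, were looked up after its value had been seen. Of 11 measured, 7 were higher in CBA/J and 4 in C57BL/6, near the 59.9% of all genes at the level rule that were higher in CBA/J. Their median difference was 0.19, against 0.07 over all those genes. None passed 2-fold and 1, Bach1, passed 1.5-fold. At the level rule 2.38% and 7.38% of probe sets that are not controls passed these limits. Bach1, a heme-regulated repressor gene, had 9.37 in CBA/J and 8.78 in C57BL/6. Sfpi1, which encodes the myeloid factor PU.1, had 10.15 in CBA/J and 9.63 in C57BL/6. Socs1, a cytokine signalling inhibitor gene, had 6.57 in CBA/J and 6.88 in C57BL/6, the opposite order, and so had Cebpb, with 9.58 in CBA/J and 9.80 in C57BL/6.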

How the data were processed

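Total RNA was hybridised to 1 array per strain. The authors deposited a log2 signal for each probe set. Affymetrix Expression Console 1.1 is the software in the submitters' processing notes. Its summarization method and the genome build are not given in the sources used here. A log2 difference and a ratio of linear signals were also deposited, and both equalled those computed here. Array probes were designed on the mouse reference, a C57BL/6 genome, so a CBA/J mismatch could lower a signal; probe sequences were not used. The number of arrays limits the precision, and there is no replicate error.

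Members, lists and rules were chosen with earlier results of these data known. Stem-loops were named if they were the 10 brightest, among the 8 largest differences in each direction at the level rule, or listed immune, let-7 or mir-17 cluster members above the 95th percentile of negative controls, with mir-155, mir-146a, mir-223 and mir-142 always included (mir-21, also in the rule, was not analysed here); seed relatives, mir-687 and mir-155 targets were added after values were seen. No ratio was given where the dimmer signal lay below the negative control median. For biogenesis genes, Drosha, Dgcr8, Xpo5, Dicer1, Ago2 and the 3 largest differences were named, for clusters of 4 or more the range and brightest member, and for hosts the largest differences. Names were matched to RefSeq (GRCm38.p6), with a position for 312 of 321 and a hairpin for 276. The processed table holds no positions, so clusters use RefSeq order without regard to strand, unlike first planned. Only the 2-fold count with its level rule was tested on simulated data, with planted differences well past the limit. The seed, cluster, host and base composition calculations were not tested in this way. The tools were matplotlib 3.10.9, statsmodels 0.14.6, scipy 1.17.1, pandas 2.3.3 and numpy 2.4.6 under Python 3.11.15. Alternatives in scaling, level rule, size limit and clustering were recomputed.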

Additional observations from a re-analysis of the deposited data

How the results depend on the processing

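No paired analysis was possible because there was 1 array per strain, and leaving out a replicate was not possible for the same reason. The number of stem-loops past 2-fold, 2 as reported, was 0 with the higher array at the 95th percentile of negative controls, 1 with both arrays at their medians, 1 after quantile normalization, 1 after a lowess trend was removed, 7 at 1.5-fold and 0 at 3-fold. It was 1 after the hairpin G and C trend was removed, an alternative chosen after seeing the data, over 71 stem-loops that leave out mir-15a for want of a hairpin. The 1 left was mir-15a with both arrays at their medians, and mir-155 after either rescaling, where mir-15a stood at 0.98, and after the G and C trend was removed. Negative controls past 2-fold, 116 as reported, numbered 550 with no level rule, 223 with the rule at their median, 2 at their 95th percentile, 20 with both arrays at their medians, 527 at 1.5-fold and 22 at 3-fold. The 10 stem-loops above background on both arrays were 4 with the 99th percentile and 114 with the median of the negative controls. The median difference of the mir-17 clusters, 0.19, was -0.21 over the 3 members at the level rule. Likewise that of the immune list, 0.07, was -0.10 over 21, and that of the tissue list, 0, was -0.24 over 3. Over all 91 stem-loops at that rule the median was -0.12. The median of the biogenesis genes, 0.16, was 0.09 after quantile or lowess scaling, and that of all genes at the level rule, 0.07, was 0.00 after quantile and 0.02 after lowess scaling. Clusters with 1 direction, 20 of 51, were 7 of the 8 whose members all met the level rule, and host pairs with the same sign, 31 of 46, were 8 of the 13 with the stem-loop at that rule; these are smaller sets, and the rise in the share of clusters was not tested. Of 27 named stem-loops, none changed sign under quantile or lowess scaling; of 21 with a hairpin, mir-207, mir-27a and mir-346 changed sign when the G and C trend was removed. The median shift of all probe sets under quantile scaling was -0.02 and under lowess 0.02. Most stem-loops lay at the level of the negative controls. The differences had a robust SD of 0.53 among the negative controls and 0.28 among the stem-loops. Without a replicate, small differences of dim stem-loops cannot be told from measurement error.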
